A study of Homo sapiens with 18 samples.

Results

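The comparison described here is the late step of a time course with luteinizing hormone (LH), in which LHR+ cells after 20 h of LH (LH20) were set against LHR+ cells after 8 h of LH (LH8). Its members are the 3 LH20 and the 3 LH8 arrays, 6 of the 18 arrays of the series, each with 19775 genes. The cells were SKOV-3, an established human ovarian carcinoma line, stably transfected to express the LH receptor (LHR), and LH was given at 50 ng/ml. The other 12 arrays held LHR+ cells with LH for 1 h (LH1) or 4 h (LH4), LHR+ cells without LH (LHR+), and LHR- cells, which are described as the parent line and elsewhere as mock-transfected. The cells without LH carry no 20 h label, so the effects of LH and of time in culture cannot be told apart. All LH groups share the transfected line, and nothing in the sources used here gives the number of clones behind it.

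LHR is a G protein-coupled receptor of the ovary that raises cAMP and, less strongly, inositol phosphates and calcium. In follicles the LH surge first induces immediate-early transcription factors and cytokines, and hours later the cells change in matrix, adhesion, growth and differentiation. The interval between 8 h and 20 h was therefore taken as that of late genes. Late genes often depend on proteins made in the first hours, which was not tested here.

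Values are probe set intensities of Affymetrix U133 Plus2 arrays, and each gene was read from 1 probe set, the one whose mean over all 18 arrays was highest. Differences are on the log2(intensity + 1) scale, LH20 minus LH8, which makes changes of dim probe sets smaller than the ratio of their intensities. A gene was called up-regulated or down-regulated when limma gave p under 0.05 and Benjamini-Hochberg adjusted p under 0.1 over all 54613 probe sets, with a fold change of at least 2 and no overlap of the triplicates. The array medians lay between 49.6 and 54.6 for LH20 and between 46.7 and 51.0 for LH8, and 31.6% to 34.5% of the intensities of these 6 arrays were under 16. The ratio of 3' to 5' probe sets of GAPDH, a sign of RNA integrity, was 1.40 to 1.60 in LH20 and 1.57 to 1.71 in LH8, and the groups overlapped. For ACTB the same ratio was higher and less even, at 7.18, 12.9 and 9.22 in LH20 and 7.68 to 8.59 in LH8. The 15 measured markers of leukocytes, endothelium, neurons and liver summed to 275 to 330 in LH20 and 297 to 328 in LH8, with PTPRC, the pan-leukocyte antigen, between 5.64 and 21.3 in the 6 arrays. The carcinoma markers KRT8 and KRT18 had 5785 to 6103 and 3495 to 3687 in LH20, against 5529 to 6230 and 3056 to 3350 in LH8. The LHCGR probe set, for the receptor itself, stayed under 3 in these 6 arrays, so it did not check the transfection, and its call as down-regulated lies within these lowest intensities.

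Between 8 h and 20 h, 437 genes (2.21% of all tested) passed as higher and 421 (2.13%) as lower in LH20. Over probe sets the numbers were 1232 (2.26%) and 1102 (2.02%). An adjusted p under 0.1 was reached by 4196 of 19775 genes, of which 1965 were higher and 2231 lower in LH20, and the median difference over all genes was 0.00093. These counts and the shares called are the background for the gene lists below. The triplicates did not overlap in 36.5% of genes. For scale, 217 genes (1.10%) were called in either direction between LH4 and LH8, and 305 (1.54%) between LH1 and LH4, by the same rule. Calls occurred at all intensities, but not evenly. With the genes split by mean intensity into 4 equal bins, there were 87 up and 62 down in the dimmest bin. The bin next to the dimmest held the most in both directions, 201 up and 183 down. The brightest bin held the fewest, 31 up and 43 down. Of the called genes, 442 have other probe sets, and in 292 of these all other probe sets moved in the same direction, while in 4 (CNR1, HMGA2, IRF4 and JAK3) another probe set was called the opposite way.

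**Figure D1:**
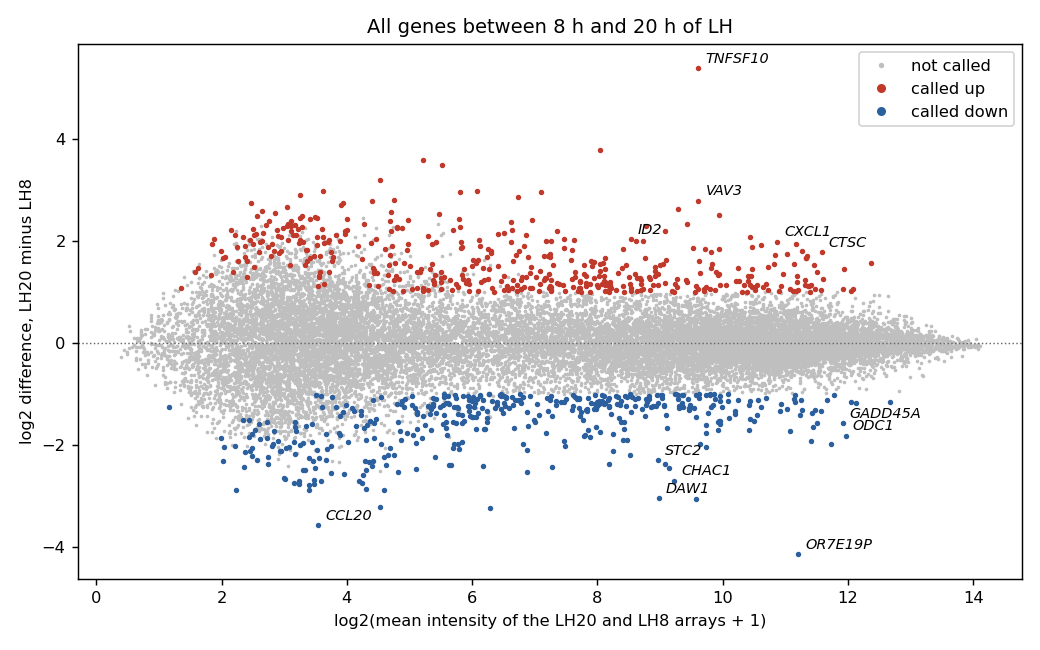
Each point is a gene, with log2 of its mean intensity over the LH20 and LH8 arrays on the x axis and the log2 difference, LH20 minus LH8, on the y axis. Red points are the 437 genes called up-regulated and blue points the 421 called down-regulated, with TNFSF10 the highest at 5.40 and OR7E19P the lowest at -4.15.

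TNFSF10, which encodes the death ligand TRAIL, had the largest rise of all genes. Its intensity was 1252, 1713 and 1598 in the LH20 arrays, against 36.03, 23.7 and 49.2 in the LH8 arrays. The 2 groups lay far apart, and the difference was 5.40 ± 0.38 (SE), a 42.1-fold rise (adjusted p = 2.33e-06). The mean was 17.6 without LH, 9.32 at 1 h and 19.1 at 4 h, so the gene stayed dim through 8 h. The receptors of TRAIL did not follow in the same way. TNFRSF10B, a death receptor, had 7515 to 7695 in LH20 and 7599 to 8095 in LH8, with overlap. TNFRSF10A, the other death receptor, had 227 to 275 in LH20 and 148 to 190 in LH8, a difference of 0.59 that did not reach the fold threshold (adjusted p = 0.0161). Among 27 measured genes of the BCL2 family and death receptors, 3 (11.1%) were up-regulated and 1 (3.70%) was down-regulated, against 2.21% and 2.13% of all genes. BCL2L11, the pro-apoptotic BH3-only protein BIM, had 897, 819 and 775 in LH20 and 261, 257 and 280 in LH8 (1.64 ± 0.09), and its call was lost when all its probe sets were averaged (0.85). BMF, a further BH3-only protein, had 1161, 1086 and 1214 in LH20 and 514, 385 and 434 in LH8 (1.38 ± 0.15). BCL2, the anti-apoptotic founder of the family, had 82.0, 72.4 and 51.5 in LH20 and 162, 140 and 139 in LH8, a fall of 2.16-fold that lost its call without LH20 replicate 3, when 16 was added to each intensity and when its probe sets were averaged. The median of the list was 0.02, near that of all genes.

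Among called genes brighter than the median gene, the next by size of rise were VAV3, ANXA10, KCNJ16 and SORBS2. VAV3, a signalling protein of the VAV family, had 1356, 1462 and 1280 in LH20, against 200.2, 162 and 232 in LH8, a 6.92-fold rise (2.79 ± 0.23, adjusted p = 6.24e-06). ANXA10, an annexin, had 1043, 1006 and 1142 in LH20 and 120.1, 246 and 169 in LH8, and the potassium channel gene KCNJ16 had 1569, 1678 and 1759 in LH20 and 236, 283 and 372 in LH8. SORBS2, an adaptor at actin fibres and adhesions, had 1147, 1115 and 1173 in LH20 and 228, 216 and 238 in LH8, with little spread in either group (2.33 ± 0.14). RASSF6, a Ras-association domain protein, rose 4.63-fold, with 810, 895 and 968 in LH20 and 184, 182 and 209 in LH8. CFB, factor B of the alternative complement pathway, had 510, 745 and 626 in LH20 and 145, 149 and 167 in LH8. In all these genes each LH20 array lay above each LH8 array, which the call requires.

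**Figure D2:**
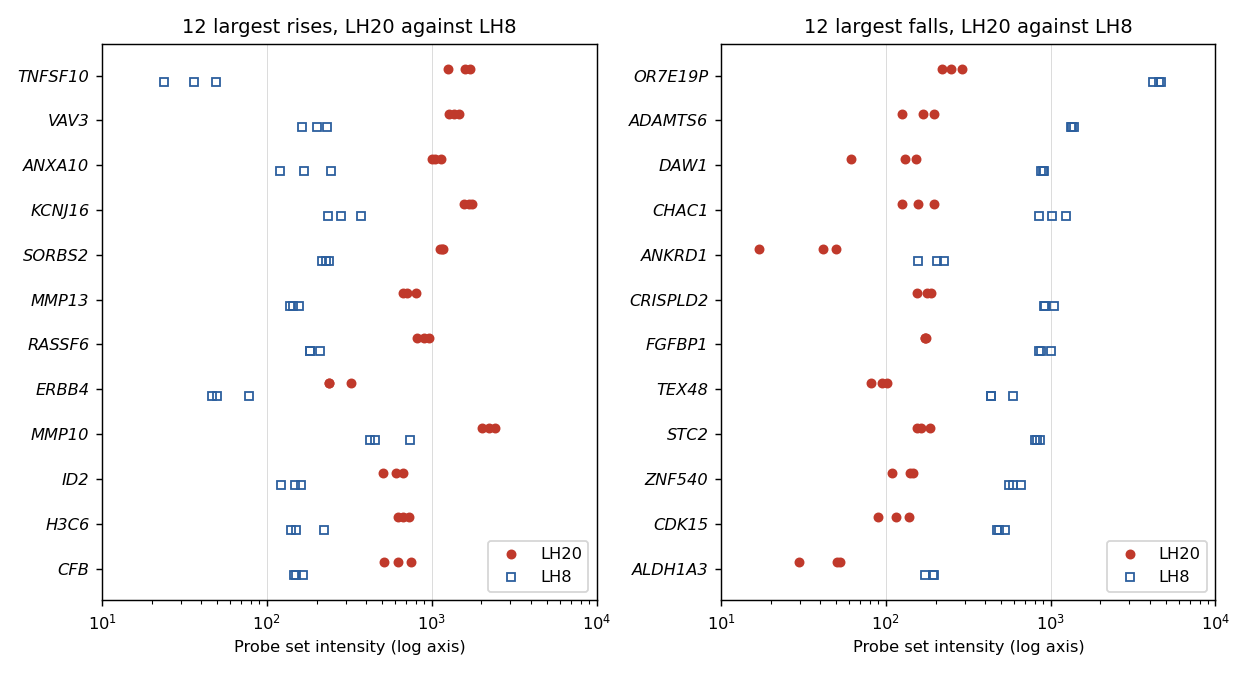
Probe set intensity on a log x axis for the 12 genes with the largest rise (left) and the 12 with the largest fall (right) among called genes brighter than the median gene, 1 point per array. Filled red circles are the 3 LH20 arrays and open blue squares the 3 LH8 arrays. The groups are separate in every row, most widely for TNFSF10 (1252 to 1713 against 23.7 to 49.2) and OR7E19P (220 to 289 against 4197 to 4666).

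Among the falls, OR7E19P, an olfactory receptor pseudogene, had 289, 220 and 247 in LH20 and 4567, 4666 and 4197 in LH8, a 17.8-fold fall (adjusted p = 7.77e-09). The mean was 252 in LH20, 3105 in LHR+ cells without LH and 214 in LHR- cells. ADAMTS6, a secreted metalloprotease, fell 8.42-fold to 195, 125 and 169 in LH20, against 1333, 1380 and 1356 in LH8. ALDH1A3, which makes retinoic acid, had 52.5, 29.8 and 50.3 in LH20 and 195, 194 and 174 in LH8. ANKRD1, a cardiac and muscle ankyrin repeat protein that is a target of YAP, had 16.99, 41.5 and 49.6 in LH20 and 226, 205 and 157 in LH8. CDK15, a cyclin-dependent kinase of little known role, had 115, 138 and 89.2 in LH20 and 525, 475 and 486 in LH8. CCND1, cyclin D1, which drives entry into the cell cycle, had 171, 156 and 182 in LH20 and 507, 560 and 375 in LH8, a 2.79-fold fall from LH8 that followed a lower level at 8 h than without LH (mean 1048).

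Genes of the amino acid response were lower in LH20. In this pathway, lack of amino acids or stress of the endoplasmic reticulum leads to translation of ATF4, which then induces amino acid transporters, biosynthetic enzymes and tRNA synthetases. Of 34 measured members, 5 (14.7%) were down-regulated and none was up-regulated, against 2.13% and 2.21% of all genes. At an adjusted p under 0.1, 20 had a lower level in LH20, as had 2231 of all 19775 genes. Of the members, 31 lay below 0, with a median of -0.32 against 0.00093 for all genes. CHAC1, which degrades glutathione, had 197, 125 and 156 in LH20 and 1241, 1017 and 855 in LH8, a 6.51-fold fall (-2.70 ± 0.16, adjusted p = 6.27e-07). STC2, a secreted glycoprotein, had 164, 184 and 154 in LH20 and 859, 820 and 803 in LH8, a 4.93-fold fall with little spread (-2.30 ± 0.10). SESN2, a leucine sensor that restrains mTORC1, had 380, 309 and 278 in LH20 and 1336, 1317 and 1180 in LH8. TRIB3, a pseudokinase that dampens ATF4, fell 2.53-fold, to 2065, 1563 and 1564 in LH20, against 4396, 4412 and 4213 in LH8. LARS1, the leucyl-tRNA synthetase, fell 2.02-fold. The well-known targets ASNS and DDIT3 stayed under the fold threshold, with ASNS, asparagine synthetase, at 3273 to 3650 in LH20 and 6453 to 6739 in LH8 (-0.91), and DDIT3, the factor CHOP, at 955 to 1142 in LH20 and 1660 to 2316 in LH8 (-0.90). ATF4 itself had 9506, 8375 and 11051 in LH20 and 11173, 11559 and 12803 in LH8, a difference that did not pass the test (-0.30, adjusted p = 0.287). Its activity is set mainly by translation, which these arrays do not measure.

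Promoter stretches of CHAC1, STC2 and SESN2, the members with the largest falls, are shown because these genes moved together. They come from RefSeq (GRCh38.p14), 5' to 3' on the strand of the gene, with matches to the CCAAT box in capitals (CCAAT, or ATTGG on the other strand) and 20 bases on either side of the outermost matches. The CHAC1 stretch is at chr15:40953284-40953415 on the plus strand, that of STC2 at chr5:173328490-173328534 on the minus strand, and that of SESN2 at chr1:28259347-28259456 on the plus strand, all before the start of the gene.
CHAC1: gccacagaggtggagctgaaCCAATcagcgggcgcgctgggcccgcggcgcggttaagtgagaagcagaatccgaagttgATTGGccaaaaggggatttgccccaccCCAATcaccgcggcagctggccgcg
STC2: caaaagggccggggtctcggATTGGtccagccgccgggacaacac
SESN2: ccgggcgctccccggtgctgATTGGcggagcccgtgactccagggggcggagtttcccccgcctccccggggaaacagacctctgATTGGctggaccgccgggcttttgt
The CHAC1 stretch holds 3 matches, that of SESN2 2 and that of STC2 1. The promoters of TRIB3, also down-regulated, and of ASNS, which was lower but not called, do not hold CCAAT. Among the promoters of this list, taken as 250 bases before to 50 after the start, 17 of 28 (60.7%) held CCAAT on either strand, against 36.1% of 15384 promoters of all genes tested, 42.7% of genes called down and 38.1% of genes called up. The amino acid response element TGATGCAAT was in 1 of the 28 promoters. These shares are a description of letters in the windows.

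Of 21 measured genes of purine and pyrimidine synthesis, 2 (9.52%, against 2.13% of all genes) were down-regulated, none was up-regulated and 19 lay below 0, with a median of -0.36. GART, which catalyses 3 steps of purine synthesis, had 391, 424 and 209 in LH20 and 1257, 1506 and 1318 in LH8 (-2.05 ± 0.28), but its call was lost when all its probe sets were averaged. CTPS1, CTP synthase, had 720, 622 and 584 in LH20 and 2165, 2244 and 1901 in LH8, a 3.28-fold fall (adjusted p = 6.27e-07). The list of urea cycle, proline, branched-chain amino acid and polyamine genes was balanced, with 12 of 24 measured genes above 0 and 12 below, a median of 0.00522, and 5 higher and 6 lower in LH20 at an adjusted p under 0.1. Its 3 calls (ODC1, SRM and GOT1, 12.5% against 2.13% of all genes) were nevertheless all falls. ODC1, ornithine decarboxylase, the first enzyme of polyamine synthesis, had 2092, 1686 and 1537 in LH20 and 6173, 6738 and 5744 in LH8, a 3.53-fold fall. SRM, spermidine synthase, had 477, 505 and 497 in LH20 and 1656, 1511 and 1294 in LH8. SAT1, which acetylates polyamines for their breakdown, lay the other way, with 8038, 8312 and 8556 in LH20 and 3899, 4366 and 4974 in LH8, under the fold threshold (0.92, adjusted p = 0.00146). GOT1, the cytosolic aspartate aminotransferase, fell 2.66-fold.

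Factors that build ribosomes were lower in LH20, while ribosomal proteins differed little. Of 28 measured genes of ribosome biogenesis, 7 (25%, against 2.13% of all genes) were down-regulated (DDX21, RRP9, NIP7, POLR1A, RRP12, WDR12 and MYBBP1A) and none was up-regulated. At an adjusted p under 0.1, 19 had a lower level in LH20, as had 2231 of all 19775 genes, and the median was -0.51. DDX21, a nucleolar RNA helicase, had 1542, 1697 and 1626 in LH20 and 3726, 4219 and 4225 in LH8, a 2.50-fold fall (-1.32 ± 0.10, adjusted p = 3.17e-06). RRP9, which binds the U3 small nucleolar RNA, had 105, 141 and 118 in LH20 and 279, 329 and 277 in LH8. POLR1A, the largest subunit of RNA polymerase I, had 257, 357 and 312 in LH20 and 708, 678.2 and 691 in LH8, with its call lost when its probe sets were averaged (-0.98), and WDR12, of the PeBoW complex of the large subunit, had 666, 667 and 609 in LH20 and 1409, 1177 and 1413 in LH8. NIP7, which acts in subunit maturation, fell 2.40-fold. The abundant nucleolar proteins NCL and NPM1 had differences of -0.14 and -0.09, and neither passed the test. None of 28 ribosomal protein genes was called or reached an adjusted p under 0.1, and their differences ran between -0.15 and 0.04, with RPL3 at 13697 to 14480 in LH20 and 13678 to 14910 in LH8. Of 24 proteasome subunits, none was called, and their median was -0.21.

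Promoter stretches are also shown for RRP9, WDR12 and POLR1A, down-regulated members whose promoters hold the letters ACGTG before the start of the gene. The promoters of DDX21 and NIP7, also down-regulated members, do not hold these letters. ACGTG is the core of the hypoxia response element and part of the E-box CACGTG, which MYC binds with MAX. Capitals mark ACGTG or CACGT, its other strand, and where both overlap they spell the E-box. The stretches lie at chr3:51941904-51941929, chr2:202911769-202911813 and chr2:86105898-86105942 of GRCh38.p14 (RefSeq), all on the minus strand.
RRP9: agctgggagggttcagctgcCACGTG
WDR12: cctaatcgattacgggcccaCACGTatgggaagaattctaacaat
POLR1A: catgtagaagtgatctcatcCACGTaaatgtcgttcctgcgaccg
The POLR1A promoter holds 1 more match after the start, and the RRP9 stretch ends at its first transcribed base. In all, 16 of 24 promoters of the list (66.7%) held ACGTG on either strand, against 24.1% of all promoters, 23.9% of genes called down and 16.4% of genes called up. The E-box, searched after these shares had been seen, was in 12 of 24 promoters (50%), against 8.9% of all promoters. Genes called down, at 10.4%, and genes called up, at 6.19%, lay near the share of all promoters. MYC, named here for its link to the E-box after its values were seen, had 485, 416 and 480 in LH20 and 523, 630 and 662 in LH8, a difference that did not pass the test (-0.39, adjusted p = 0.101).

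Of 47 genes of G2/M and mitosis, none was called, but 27 had an adjusted p under 0.1 and a lower level in LH20, none had a higher one, and 43 lay below 0 (median -0.33). Over all 19775 genes, 2231 were lower and 1965 higher at that threshold. KIF23, a kinesin of cytokinesis, had 318, 337 and 322 in LH20 and 622, 591 and 661 in LH8 (-0.94), and CCNB1, cyclin B1, differed by -0.39 (adjusted p = 0.0168). The medians of this list against LHR+ cells without LH were -1.05 at 4 h, -0.58 at 8 h and -0.93 at 20 h, values that share the LHR+ arrays. Of 47 genes of DNA replication and G1/S, CLSPN and CDC6 (4.26%, against 2.13% of all genes) were down-regulated. At an adjusted p under 0.1, 18 had a lower level in LH20, while 2 had a higher one (E2F2 at 0.92 and RRM1 at 0.33), 16 lay above 0 and the median was -0.18. CDC6, a licensing factor of replication origins, had 184, 184 and 193 in LH20 and 389, 395 and 399.9 in LH8. CLSPN, the checkpoint adaptor claspin, had 70.9, 46.96 and 28.8 in LH20 and 200.1, 129.9 and 126 in LH8. Both lost their call when all probe sets of the gene were averaged. CDKN1B, the inhibitor p27, was higher in LH20 by 0.48, under the fold threshold.

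Among 21 p53 target genes, 4 were down-regulated and none was up-regulated, but the median was 0.01, so most members did not move with them. GADD45A, which acts in DNA repair and growth arrest, had 2190, 1855 and 1776 in LH20 and 5424, 5716 and 6180 in LH8, a 2.98-fold fall (adjusted p = 2.32e-06). TIGAR, which lowers glycolytic flux, had 28.9, 8.18 and 37.5 in LH20 and 113, 112 and 126 in LH8, and AEN, a nuclease, had 52.1, 50.3 and 43.3 in LH20 and 149, 118 and 85.1 in LH8. SESN2, already given above, was the fourth. SESN2 and GADD45A are also induced through ATF4. CDKN1A, the p53 target p21, differed by 0.42 and was not called.

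**Figure D3:**
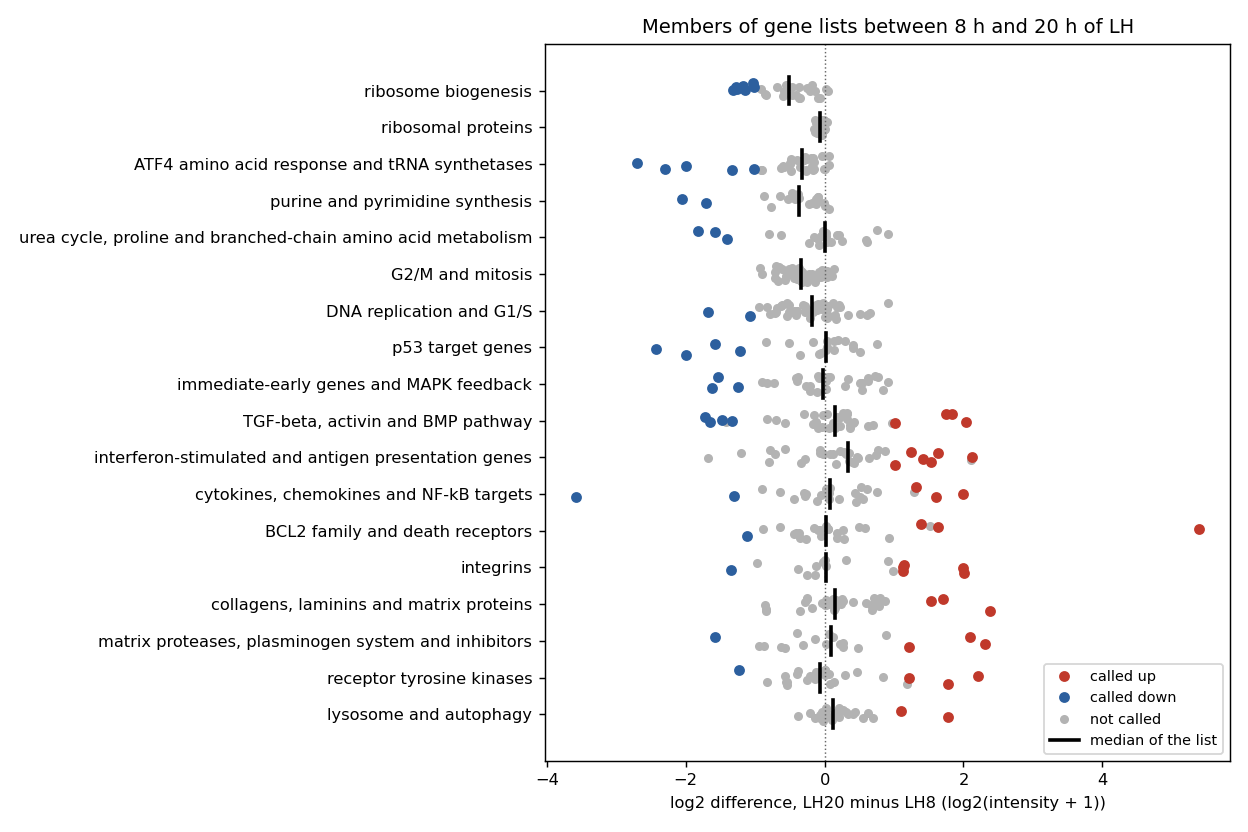
Each point is a measured gene of the list named on the y axis, with its log2 difference, LH20 minus LH8, on the x axis. Red points were called up, blue points called down and grey points not called, and black bars are medians. Ribosome biogenesis (median -0.51), nucleotide synthesis (-0.36) and the ATF4 list (-0.32) lie to the left, ribosomal proteins lie within 0.16 of 0, and TNFSF10 is the point at 5.40.

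In the TGF-beta, activin and BMP pathway, 37 genes were measured, with 4 (10.8%) up-regulated and 4 (10.8%) down-regulated, against 2.21% and 2.13% of all genes. The ID genes, inhibitors of basic helix-loop-helix factors and classical targets of BMP signalling, were higher in LH20. ID2 had 610, 504 and 665 in LH20 and 122, 162 and 148 in LH8, a 4.10-fold rise (2.04 ± 0.18, adjusted p = 1.17e-05). ID3 had 3624, 2716 and 3306 in LH20 and 929, 913 and 1016 in LH8, and ID4 had 1313, 1258 and 1381 in LH20 and 339, 356 and 409 in LH8. ID1 had 2133 to 2403 in LH20 and 1078 to 1229 in LH8, a difference of 0.98 just under the fold threshold. SMAD6, an inhibitory SMAD, was called at 1.01, and its call was lost with equal array medians and without LH20 replicate 1, LH20 replicate 2 or LH8 replicate 2, when 16 was added and when its probe sets were averaged. The down-regulated genes were ligands and extracellular or membrane inhibitors. INHBA, the activin A subunit, had 1591, 1231 and 1217 in LH20 and 4006, 4343 and 4280 in LH8, a 3.15-fold fall. BAMBI, a decoy receptor, had 456, 447 and 443 in LH20 and 1677, 1456 and 1325 in LH8, and INHBE, an activin subunit best known from liver, had 134, 120.3 and 126 in LH20 and 398, 321 and 258 in LH8. FST, follistatin, which binds activin, had 9.04, 10.9 and 11.3 in LH20 and 23.7, 42.8 and 28.7 in LH8. The FST probe set was dim, and its call was lost when 16 was added to each intensity.

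Interferon-stimulated genes were higher in part. Of 34 measured genes, 6 (17.6%) were up-regulated and none was down-regulated, against 2.21% and 2.13% of all genes. At an adjusted p under 0.1, 13 were higher and 2 lower in LH20, against 1965 and 2231 of all 19775 genes, and the median was 0.33. IFIT1, which binds viral RNA, had 252, 359.5 and 258 in LH20 and 79.8, 104 and 92.1 in LH8, a 3.11-fold rise (adjusted p = 0.000568). IFITM1, which blocks viral entry, had 286, 343 and 353 in LH20 and 90.4, 138 and 111 in LH8. BST2, the tetherin that holds virions at the membrane, had 212, 148 and 235 in LH20 and 82.1, 66.5 and 68.7 in LH8. IFIT2 and IFIT3 rose 2.36-fold and 2.03-fold, to 76.3 to 119.97 and 234 to 302 in LH20, and their means without LH were 111 and 214. GBP2, a guanylate-binding protein, was called at 2.13 from dim probe set values of 27.3, 29.7 and 8.84 in LH20 and 3.70, 1.40 and 8.04 in LH8. Its call was lost without LH20 replicate 1, LH20 replicate 2 or LH8 replicate 2, with only the arrays of the compared groups and when 16 was added. ISG15, the ubiquitin-like modifier of the same response, lay the other way at 417, 455 and 484 in LH20 and 745, 833 and 750 in LH8 (-0.78, adjusted p = 0.000344).

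Cytokine genes moved in both directions. CXCL1, a neutrophil chemokine, had 2810, 3157 and 2991 in LH20 and 846, 751 and 667 in LH8, a 3.97-fold rise (adjusted p = 1.51e-07). CCL20, a chemokine of dendritic cells and lymphocytes, was dim, with 0.751, 0.562 and 1.02 in LH20 and 17.4, 17.5 and 26.7 in LH8, and its mean had been 72.7 at 1 h. IL11, of the IL-6 family, had 102, 174 and 152 in LH20 and 320.4, 341 and 375 in LH8, and its call was lost when its probe sets were averaged (-0.88). IL6 had 146, 112 and 132 in LH20 and 232, 244 and 253 in LH8, under the fold threshold. Of the 26 measured genes of this list, 3 (11.5%) were up-regulated and 2 (7.69%) were down-regulated, against 2.21% and 2.13% of all genes. The calls of CSF3 and CXCL5, with no value above 21 in LH20, made up the rest. The call of CSF3 was lost without LH20 replicate 2 or LH8 replicate 2, and that of CXCL5 without LH20 replicate 3, LH8 replicate 1 or LH8 replicate 2. The count of 3 fell to 1 when 16 was added to each intensity, with only the brighter probe sets, with a trended and robust fit, and without LH8 replicate 2.

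Matrix, adhesion and protease genes gave several of the larger rises, but the protease list was balanced. Its 20 measured genes of proteases and inhibitors had 3 (15%) up-regulated and 1 (5%) down-regulated, against 2.21% and 2.13% of all genes, and a median of 0.09. At an adjusted p under 0.1, 5 of them were higher and 5 lower in LH20. MMP13, collagenase 3, had 667, 801 and 712 in LH20 and 144, 156 and 138 in LH8, a 4.94-fold rise (2.31 ± 0.16, adjusted p = 1.71e-06). MMP10, stromelysin 2, had 2025, 2229 and 2424 in LH20 and 736, 423 and 454 in LH8. PLAT, tissue plasminogen activator, rose 2.32-fold, while ADAMTS1, a protease of the ovulatory matrix, had 1619, 1414 and 1356 in LH20 and 3988, 4564 and 4535 in LH8, a 2.98-fold fall. ADAMTS1 is induced by the LH surge in ovarian follicles of the mouse. Of 17 integrin genes, ITGA11, ITGA2, ITGA1, ITGA10 and ITGB4 (29.4%) were up-regulated and ITGB3 (5.88%) was down-regulated. At an adjusted p under 0.1, 7 integrin genes were higher and 2 lower in LH20, and the median of the list was 0.02. ITGA2, the alpha subunit of a collagen receptor, had 149, 169 and 148 in LH20 and 28.4, 55.2 and 35.3 in LH8, and ITGA1, of the other main collagen receptor of epithelia and stroma, had 654, 682 and 732 in LH20 and 308, 278 and 354 in LH8. ITGA10 and ITGA11 are collagen receptors too, ITGA11 at no more than 27 in any of the 6 arrays and with its call lost when 16 was added and when its probe sets were averaged, and the call of ITGA10 was lost without LH8 replicate 3 (0.95). Averaged over all probe sets of a gene, the count of 5 was 3. ITGB3, which pairs with the alpha V subunit, had 53.4, 29.6 and 22.97 in LH20 and 81.1, 84.9 and 91.8 in LH8, and its call was lost when its probe sets were averaged (-0.43).

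COL1A2, a chain of type I collagen, had 4001, 4314 and 4224 in LH20 and 1449, 1432 and 1450 in LH8, a 2.89-fold rise (1.53 ± 0.11). The small proteoglycans DCN and LUM, which bind collagen fibrils, had 120.0, 175 and 195 and 225, 216 and 229 in LH20, against 20.3, 39.6 and 32.97 and 55.1, 61.1 and 92.7 in LH8. These were the 3 called genes of 34 measured collagens, laminins and matrix proteins (8.82%, against 2.21% of all genes called up). They also belong to the 13 fibroblast and smooth muscle markers, of which 4 (30.8%) were up-regulated, PDGFRA being the fourth, and none was down-regulated. The call of PDGFRA was lost without LH20 replicate 2, LH8 replicate 1 or LH8 replicate 2 and with only the arrays of the compared groups, and those of PDGFRA and LUM when the probe sets of each gene were averaged. The summed intensity of these markers was 20039 to 21875 in LH20 and 16438 to 18111 in LH8, most of it from COL1A1 (15181 to 16742 and 14375 to 16119). POSTN and FAP, markers of stromal fibroblasts, had no value above 16.4 in either group. The part of other cells in these rises was not tested. The SKOV-3 cells without receptor had means of 5117 for LUM and 7148 for COL1A2.

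Epithelial junction genes were mixed. CLDN7 had 54.4, 47.7 and 44.7 in LH20 and 12.7, 12.8 and 10.5 in LH8, whereas CLDN1 had 452, 354 and 357 in LH20 and 1334, 1320 and 1311 in LH8, a 3.42-fold fall (adjusted p = 4.32e-06). Both are claudins of tight junctions. CDH1, E-cadherin, had 50.8, 43.6 and 60.4 in LH20 and 17.9, 11.3 and 28.6 in LH8, and its call was lost without LH20 replicate 3 or LH8 replicate 2, when 16 was added and when its probe sets were averaged. MUC1, the mucin that carries the tumour marker CA15-3, had 2982, 3426 and 3274 in LH20 and 1470, 1524 and 1230 in LH8. AQP3, a water and glycerol channel, had 2652, 3139 and 2833 in LH20 and 1232, 919 and 1237 in LH8 (1.36 ± 0.15). The other up-regulated members of 13 connexins and aquaporins, GJB2 and GJB5, had no value above 18.3. The count of 3 (23.1%, against 2.21% of all genes) was 1 when 16 was added, with only brighter probe sets, with only the arrays of the compared groups, and without any one of LH20 replicates 2 and 3 and LH8 replicates 1 and 2.

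Of 27 measured receptor tyrosine kinases, 3 (11.1%) were up-regulated (ERBB4, EPHA4 and PDGFRA) and 1 (3.70%) was down-regulated (ROR1), against 2.21% and 2.13% of all genes. In this list 15 lay below 0, the median was -0.07, and 6 were higher and 6 lower in LH20 at an adjusted p under 0.1. ROR1, an orphan receptor that binds WNT5A, had 17.8, 29.7 and 19.1 in LH20 and 35.5, 62.7 and 64.03 in LH8, and its call was lost when 16 was added and with only the arrays of the compared groups. ERBB4, a receptor of neuregulins, had 238, 239 and 323 in LH20 and 46.1, 77.9 and 49.9 in LH8, a 4.61-fold rise, while its mean in LHR- cells was 1877. ERBB2, the receptor that SKOV-3 cells carry in amplified form, had 6796, 6928 and 7105 in LH20 and 3914, 3592 and 4196 in LH8, under the fold threshold (0.83, adjusted p = 0.000512). Of their ligands, NRG1 fell 2.04-fold and HBEGF, also a ligand of the EGF receptor, had 219.5, 333 and 330.2 in LH20 and 753, 672 and 640 in LH8. Both lost their call when the probe sets of each gene were averaged, and NRG1 also without LH8 replicate 3 (-0.95) and when 16 was added. EPHA4, an ephrin receptor, had 1282, 1512 and 1361 in LH20 and 413, 336 and 464 in LH8, and EFNA1, one of its ligands, rose 2.24-fold. Of 26 nuclear receptors outside the NR4A family, 2 (7.69%) were up-regulated, none was down-regulated and the median was 0.20. ESR1, the estrogen receptor alpha, had 306, 333 and 323 in LH20 and 127, 118 and 143 in LH8, with its call lost when its probe sets were averaged (0.61), and NR3C2, the mineralocorticoid receptor, had 125, 147 and 89.9 in LH20 and 27.4, 40.01 and 35.9 in LH8. SULT1E1, which inactivates estrogens, had 67.8, 67.3 and 82.2 in LH20 and 38.5, 26.8 and 31.3 in LH8, and its call was lost when 16 was added. It was the single called gene of 16 steroidogenic genes (6.25%), and the median of that list was 0.07. HPGD, which degrades prostaglandins, had 425, 353 and 289 in LH20 and 98.7, 92.4 and 165 in LH8. SLCO2A1, which takes up prostaglandins for that breakdown, had 0.613, 11.8 and 2.73 in LH20 and 40.3, 30.96 and 45.9 in LH8.

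Among genes of the cAMP pathway itself, 3 of 34 (8.82%) were up-regulated and 1 (2.94%) was down-regulated, against 2.21% and 2.13% of all genes. At an adjusted p under 0.1, 10 were higher and 4 lower in LH20, and the median of the list was 0.12. RGS2, which shortens signalling by G proteins, had 1478, 1739 and 1415 in LH20 and 419, 394 and 475 in LH8, a 3.59-fold rise (adjusted p = 2.23e-06). PDE4B, a phosphodiesterase that degrades cAMP, had 244, 211 and 235 in LH20 and 57.7, 56.3 and 95.4 in LH8, and its mean without LH was 6.23. Its spread over the 6 groups was wide (1.75 ± 0.61, adjusted p = 0.0846), and its call was lost with equal array medians, with the methods' ANOVA, and without any one of LH20 replicates 1, 2 and 3 and LH8 replicates 1 and 2. PKIA, an inhibitor of protein kinase A, had 43.97, 60.7 and 34.8 in LH20 and 18.3, 25.1 and 20.2 in LH8, with its call lost without LH20 replicate 2 or LH8 replicate 1, when 16 was added and when its probe sets were averaged. Of the 34 measured genes of this list 3 were thus up-regulated, a count that was 1 without LH20 replicate 2 or without LH8 replicate 1 and 1 with only the brighter probe sets, and CREB5 was down-regulated, a call lost without LH20 replicate 3 (-0.98). Of 33 immediate-early genes, KLF4, CCN1 and FOSL1 were the 3 called (9.09%), all down-regulated. CCN1, a matrix protein and target of YAP and SRF, had 819.6, 759 and 653 in LH20 and 2034, 2271 and 2149 in LH8, and a mean of 8892 at 1 h. KLF4, a zinc finger factor, fell 3.06-fold. The median of the list was -0.02, and at an adjusted p under 0.1 it held 7 genes higher in LH20 (EGR1, FOSL2, JUNB, ATF3, NR4A2, ZFP36 and DUSP1) and 6 lower. EGR1 had 485 to 554 in LH20, 288 to 316 in LH8 and a mean of 9631 at 1 h, with a difference under the fold threshold (0.77).

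Lysosomal genes included CTSC, cathepsin C, with 4310, 4880 and 5045 in LH20 and 1505, 1340 and 1284 in LH8, a 3.45-fold rise (adjusted p = 4.97e-07), and CTSK, which rose 2.14-fold. These 2 calls were 7.14% of the list, against 2.21% of all genes called up. A further 8 of 28 measured genes of this list had a higher level in LH20 at an adjusted p under 0.1 and none a lower one, such as NPC1 (0.63) and LAMP2 (0.70). Over all 19775 genes, 1965 were higher and 2231 lower at that threshold. The histone genes H2AC6 and H2BC5, whose transcripts can also carry a poly(A) tail, were up-regulated, H2AC6 with 3520, 3715 and 3713 in LH20 and 1009, 891 and 949.7 in LH8. They were the only calls among 15 measured genes of the histone list (13.3%), whose median was 0.06. At an adjusted p under 0.1, 2 genes of that list were higher and 3 lower in LH20. The histone gene H3C6, not in that list but among the 12 largest rises of called genes brighter than the median gene, had 621, 732 and 667 in LH20 and 221, 149.5 and 139 in LH8. No gene of cholesterol synthesis, the Wnt pathway, NRF2 targets, oxidative phosphorylation, vesicle transport or IGF binding proteins was called.

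The remaining lists held few calls. Some shares lay near the 2.21% up and 2.13% down of all genes, such as 4% down in the unfolded protein response. Glycolysis and hypoxia had 3.45% up and 3.45% down. The called members were as follows. In the unfolded protein response, HYOU1, a chaperone of the endoplasmic reticulum, had 411, 314 and 381 in LH20 and 959.9, 982 and 751 in LH8, a 2.43-fold fall and the single call of 25 genes, and HSPA5, the chaperone BiP, lay below the fold threshold with 6078 to 6337 in LH20 and 9692 to 10403 in LH8 (-0.68). Among genes of glycolysis and hypoxia, HK2, hexokinase 2, had 1196, 1217 and 1104 in LH20 and 2308, 3040 and 2813 in LH8, a 2.31-fold fall. ANKRD37, a target of HIF1, had 4315, 4350 and 4521 in LH20 and 1789, 1852 and 1890 in LH8. The call of ANKRD37 was lost when its probe sets were averaged (0.33), and the other 27 genes of that list were not called. HES4, a repressor downstream of Notch, had 21.6, 7.76 and 34.8 in LH20 and 83.9, 78.04 and 76.98 in LH8, and was the single call of 18 Notch pathway genes, lost with only the arrays of the compared groups. Among axon guidance genes, NTNG1, a netrin of the cell membrane, had 391, 449 and 337 in LH20 and 129.6, 133.4 and 134 in LH8, a 2.93-fold rise. SEMA4B, a semaphorin, was up-regulated as well, a call lost without LH8 replicate 2 (0.83) and with only the arrays of the compared groups, while the secreted netrin NTN4 had 2650, 2581 and 2592 in LH20 and 5488, 5916 and 6130 in LH8, a 2.24-fold fall. ELOVL6, which lengthens fatty acids, fell 2.26-fold, and CIART, a repressor of the circadian clock, fell 2.05-fold, a call lost without LH20 replicate 3 or LH8 replicate 2 and when 16 was added (-0.98). ANGPT1, a ligand of the endothelial receptor TIE2, was called at 1.56 from values of no more than 50.8, and its call was lost without any one of the 6 arrays except LH8 replicate 2, and also when 16 was added, with equal array medians, with only the arrays of the compared groups, with a trended and robust fit, with the methods' ANOVA and when its probe sets were averaged.

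**Figure D4:**
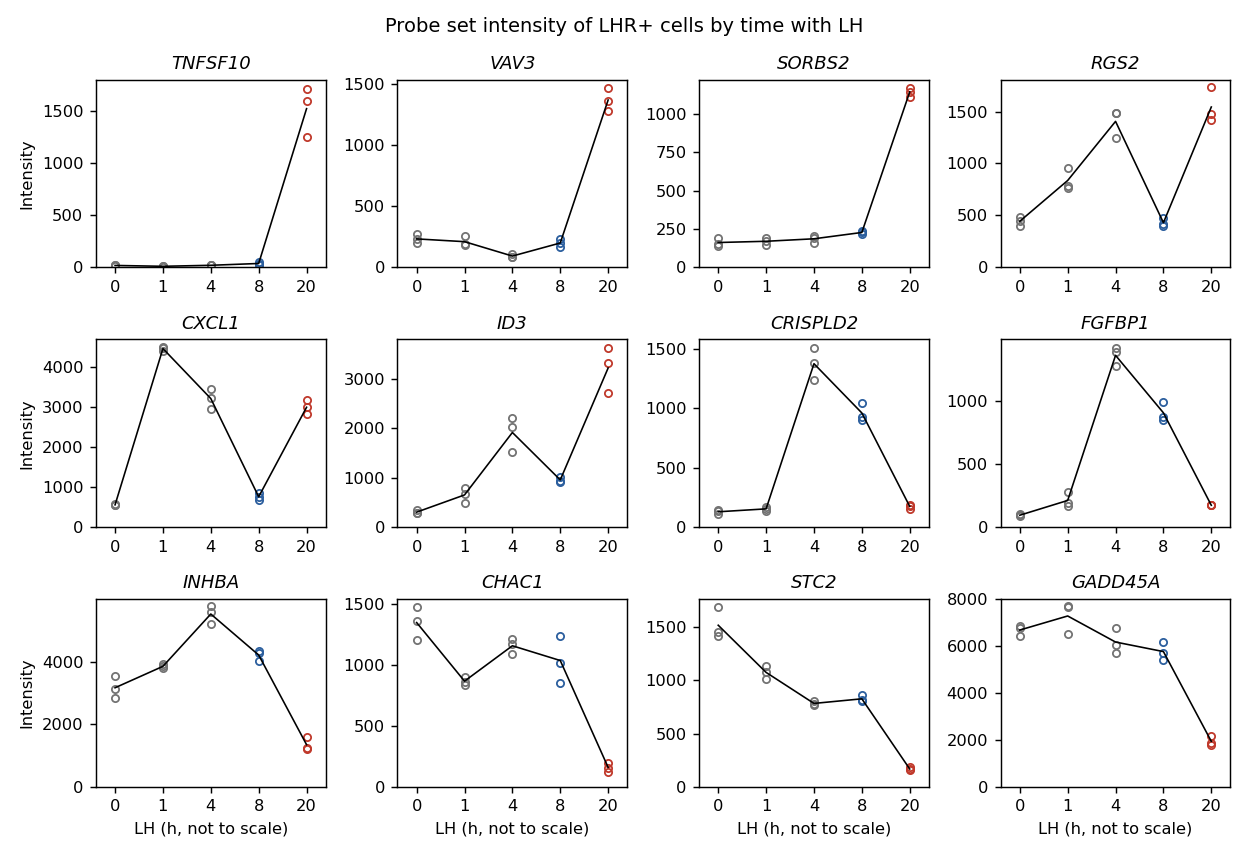
Intensity of 12 probe sets (y axis, linear, from 0) in LHR+ cells at 0, 1, 4, 8 and 20 h of LH (x axis, evenly spaced), with 1 open circle per array, blue for LH8 and red for LH20, and a line through the means of 3 arrays. TNFSF10, VAV3 and SORBS2 are highest at 20 h, RGS2, CXCL1 and ID3 are high at 4 h, lower at 8 h and high at 20 h, CRISPLD2 and FGFBP1 peak at 4 h, and CHAC1, STC2 and GADD45A are lowest at 20 h.

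Whether the change after 8 h differed from the change up to 8 h was tested as a contrast of these changes, (LH20 minus LH8) minus (LH8 minus LHR+), with the shared LH8 arrays in the model. By this late-phase contrast 298 genes were called positive (1.51%) and 357 negative (1.81%), with adjusted p under 0.1 and a size of at least 1. TNFSF10 (4.33), VAV3 (3.02), MMP13 (3.02), SORBS2 (1.83) and ID2 (1.73) were among the positive ones. Those genes were chosen for a large rise from LH8 to LH20, and CRISPLD2, FGFBP1 and DAW1 below for a large fall. The contrast contains that same difference, so their sign in it gives no separate evidence. KCNJ16, ID3 and ID4 had contrasts of -0.03, 0.08 and 0.03, with intensities that were already higher at 8 h than without LH (KCNJ16 means of 50.4 without LH, 297 at 8 h and 1669 at 20 h). Negative contrasts included genes that had risen by 8 h and fell afterwards. CRISPLD2, a secreted protein of lung and stroma, had means of 128, 153, 1374, 959.9 and 173 at 0, 1, 4, 8 and 20 h (-5.36), and FGFBP1, which releases fibroblast growth factors from matrix, had means of 94.1, 212, 1367, 909 and 173 (-5.64). DAW1, a dynein assembly factor, had 130, 61.7 and 152 in LH20 and 913, 896 and 872 in LH8, and a mean of 59.4 without LH (-7.01). EGR1 had a positive contrast (2.99), since it was lower at 8 h than without LH (mean 1410).

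The step was then set beside LH4 against LHR+, a comparison that shares no arrays with it and in which 234 genes (1.18%) were called up and 160 (0.809%) down. In all, 24 genes were up-regulated in both, 5.49% of the late list and 10.3% of the 4 h list, among them CXCL1, RGS2, ID3, ID4, KCNJ16, AQP3, EPHA4, PDE4B and LUM. Several of these were lower at 8 h than at both 4 h and 20 h, as RGS2, with means of 1405 at 4 h, 430 at 8 h and 1544 at 20 h, and CXCL1, with means of 3203, 755 and 2986. A further 26 genes were up-regulated at 4 h and down-regulated between 8 h and 20 h, 6.18% of the late list and 11.1% of the 4 h list, among them CRISPLD2, FGFBP1, DAW1, CCL20, IL11, HBEGF, FST and ZNF540. There were 12 genes down at 4 h and up in the late step, such as VAV3, BMF and IFIT2, and 11 down in both, such as FOSL1 and INHBE.

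LHR+ cells without LH against LHR- cells shares no arrays with the step either, and 463 genes (2.34%) were called up and 372 (1.88%) down in it. This pairing was chosen after the values had been seen. Of the 437 genes up-regulated in the late step, 59 (13.5%) were called lower in LHR+ than in LHR- cells, which is 15.9% of that list, and 20 (4.58%) were called higher. Of the 421 down-regulated genes, 46 (10.9%) were called higher in LHR+ cells and 26 (6.18%) lower. TNFSF10, ERBB4, MMP13, RASSF6, BCL2L11, COL1A2, LUM, DCN, ESR1 and NR3C2 belong to the 59, and WT1, CDK15, ZNF540, ROR1 and OR7E19P to the 46. LH20 was not set against LHR- cells over these whole sets, and single genes differed. The late values of ERBB4 and MMP13 did not equal those of LHR- cells, with means of 267 and 727 in LH20 and 1877 and 3440 in LHR- cells. For TNFSF10 the LH20 mean of 1521 lay above the 64.9 of LHR- cells, while OR7E19P, as given above, came near its LHR- mean. WT1, the transcription factor of the genital ridge and a marker of serous ovarian carcinoma, had 48.5, 44.7 and 54.8 in LH20 and 126, 116 and 146 in LH8, and a mean of 59.4 in LHR- cells, and its call was lost when its probe sets were averaged (-0.65).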

How the data were processed

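RNA of SKOV-3 cells was hybridised to Affymetrix U133 Plus2 arrays, 3 per group in 6 groups, described as independent replicates, so that p-values measure the spread between these samples. Per the labels the deposited values are linear probe set intensities made by the authors with PLIER, while the methods name RMA. The background correction and the versions are not given in the sources used here. No count or depth exists for arrays, and 3 arrays per group limit the precision.

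Of 54675 probe sets, 62 controls were left out. Probe sets were named through the platform annotation and RefSeq, 41091 with 1 gene, 1801 with several and 11721 with none, and unnamed ones stayed in the tests. Every column of values matched a sample. A group-means model over all 18 arrays was fitted with limma 3.58.1 in R 4.3.3 to log2(intensity + 1), with no further normalization, after a check on simulated data. The thresholds (p 0.05, adjusted p 0.1, fold 2, no overlap of triplicates) follow the study's methods. Limma replaced their ANOVA and Mann-Whitney tests. In the latter, a rank test, 3 arrays against 3 cannot give an exact two-sided p below 0.1. All adjusted p are Benjamini-Hochberg values of limma over all probe sets. The late-phase contrast had no overlap rule.

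The comparison, the gene lists and the motifs were chosen with earlier results of these data known. Genes to describe were drawn from those that rose or fell most among called genes with a mean above that of the median gene (196.19; 12 each way), up to 4 called members of each list each way, the first 2 members of each list, and cell markers. TNFRSF10A, TNFRSF10B, ATF4, LARS1, SAT1, NPM1, MYC, KIF23, CDKN1B, ID1, IFIT2, IFIT3, ISG15, E2F2, RRM1, JUNB, ATF3, NR4A2, ZFP36, DUSP1, FOSL2, ITGB4, NPC1, LAMP2, RRP12, WDR12, MYBBP1A and the 4 genes with opposed probe sets were added after their values were seen. Promoters are RefSeq sequences from 250 bases before to 50 after the start, found for 323 genes called up and 309 called down. Alternatives were a pseudocount of 16, other array scalings, a filter on dim probe sets, other models and fold thresholds, averaging of probe sets and omission of each array.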

Additional observations from a re-analysis of the deposited data

How the results depend on the processing

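The counts of genes called up and down (437 and 421) were 267 and 241 with 16 added to each intensity, where probe sets gave 657 and 548. With only probe sets above the median tested they were 243 and 277 (probe sets 609 and 672), fewer partly because fewer were tested. With no fold threshold they were 1924 and 2183 (probe sets 4393 and 4570, late-phase contrast 1293), and with a fold threshold of 1.5 they were 1031 and 1062 (probe sets 2744 and 2569, late-phase contrast 1217). Without 1 array at a time, the counts lay between 378 and 462 genes up, 379 and 457 genes down, 1086 and 1352 probe sets up, 973 and 1303 probe sets down, and 486 and 625 genes in the late-phase contrast. Equal array medians gave 363 up and 486 down and quantile normalization 395 and 470, so the split between up and down depended on the scaling. No direction was reversed. Of 110 called genes chosen for description, 76 kept their call in every setting in which their probe set was tested. There were 21 lost when the probe sets of a gene were averaged and 16 when 16 was added. The cause of these losses was not tested. With only probe sets above the median, 93 of the 110 were tested and all 93 kept their call. The others, which are dim, could not be judged in that setting. LH20 and LH8 arrays of the same replicate number did not deviate together over all probe sets (r = -0.0114, 0.00691 and -0.0206 for numbers 1, 2 and 3). No pairing by number was thus seen, though many of these probe sets are dim and a weak one could be missed. With the number as a replicate block 440 genes were called up and 415 down, probe sets 1241 and 1081, and 626 genes in the late-phase contrast, with all 110 calls of the described genes kept. In these 6 arrays 31.6% to 34.5% of the probe sets lay under an intensity of 16, where differences on the log scale are least certain.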
